A study of Mus musculus with 6 samples.

Results

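The genes described here make up the ESCRT and exosome release machinery, a list of 35 genes. Of these, 34 were matched to a row in a table of 56953 genes and 32 had enough reads to be tested. The 35 genes were chosen by name, by matching Ensembl identifiers to GENCODE gene symbols. The rule uses no measured value, although earlier results of these data were known when the list was made. ESCRT stands for endosomal sorting complexes required for transport. In the libraries labelled GαqKO, 16 of the 32 tested genes were lower and 7 were higher than in WT, mostly by less than 0.5 on the log2 scale. Over all genes tested 34.1% were lower and 31.8% higher at the same threshold. A single member, Chmp4c, changed by more than 1. All 3 genes of ESCRT-0 fell, whereas ESCRT-III was split, with 4 genes lower and 4 higher, the syntenin gene Sdcbp and the ALIX partner Pdcd6 fell, and the ALIX gene Pdcd6ip and Tsg101 were not called.

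ESCRT complexes act one after another on the endosome. ESCRT-0 gathers ubiquitinated receptors, ESCRT-I and ESCRT-II shape the inward bud, ESCRT-III filaments cut it off as an intraluminal vesicle, and the ATPase VPS4 takes the filaments apart. A multivesicular body filled with such vesicles either fuses with the lysosome, where its cargo is degraded, or with the plasma membrane, where the vesicles leave the cell as exosomes, and the adaptors syntenin and ALIX link cargo such as syndecans to ESCRT-III on the way.

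RNA of mouse embryonic fibroblasts (MEFs) was sequenced in bulk in 6 libraries, 3 labelled WT and 3 labelled GαqKO, from cells grown in the same serum-containing medium with no treatment. The second group is described in the study as Gαq/11 knockout MEFs that came from the same provider as the WT cells. How many embryos or clones stand behind each genotype is not given in the sources used here, so an effect of the genotype and a difference between cell lines cannot be told apart. The study asked how fibroblasts without Gαq handle receptors that reach multivesicular bodies, and the comparison of GαqKO with WT asks whether transcripts of the machinery differ between these cells.

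Values are normalized counts, which are the reads of a gene divided by 1 scaling factor per library. They summed to between 11392429 and 11483486 per library, and the reads recovered in 5 libraries ranged from 9853000 to 12229175. Gnaq, the gene of Gαq, was not lower in the libraries labelled GαqKO, with 1888 to 1960 normalized counts against 1660.2 to 1747 in WT, while Gna11, the gene of Gα11, had 419 to 472 against 2123 to 2180. Directions are therefore drawn from the labels. Of 12 fibroblast markers 10 were tested, 5 higher and 5 lower, with a summed level of 62926 to 66197 normalized counts in GαqKO and 84406 to 90168 in WT, and Lum was listed at 0 in all 3 WT libraries. Col1a1, Vim and Fn1 were among those lower, while the markers that moved most were higher in GαqKO, Pdgfra at 2320 ± 42.0 against 19.6 ± 2.2 normalized counts and Dcn at 1663 ± 53.8 against 32.1 ± 3.0 (SD, n = 3 each), and Thy1 rose from at most 2.1 to between 59.0 and 76.5. The 6 epithelial markers summed to 10.1 to 23.1 in GαqKO and to 515 to 541 in WT, where nearly all came from Cdh1 and Krt14. Krt5 was at or near 0 in every library and Epcam had 1.0 to 8.1 normalized counts in the 6 libraries. Of the 4 neural markers only Tubb3 was lower, with sums of 117 to 137 and 431 to 501, and Cd68 was the single blood and macrophage marker called, with sums of 69.5 to 103 and 104 to 115. Endothelial and skeletal muscle markers summed to at most 26.6. The part of these differences in the results below was not tested.

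A gene was called higher or lower at an adjusted p under 0.05 in limma, a linear model fitted across all genes on log2(normalized count + 1), so that a fold change understates the change of low genes. Over all 14096 genes tested, 31.8% were higher and 34.1% lower in GαqKO at this threshold. Among the 32 members tested, 7 (21.9%) were higher and 16 (50%) lower, and 9 were not called. With a log2 fold change over 1 in size as well, 10.2% of all genes were higher and 10.5% lower, against 0 and 1 of the members. The median log2 fold change was -0.23 over the members and -0.01 over all genes tested, and the median size was 0.36 and 0.39. In 26 members (81.2%) the change stayed within 0.5 of 0, as it did in 58.4% of all genes. The WT and GαqKO values did not overlap in 25 of the 32 members and in 69.6% of all genes. In bulk samples fewer cells of a type and less RNA per cell cannot be told apart. The study states 3 biological replicates per genotype, and the p-values measure the spread between these samples.

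**Figure D1:**
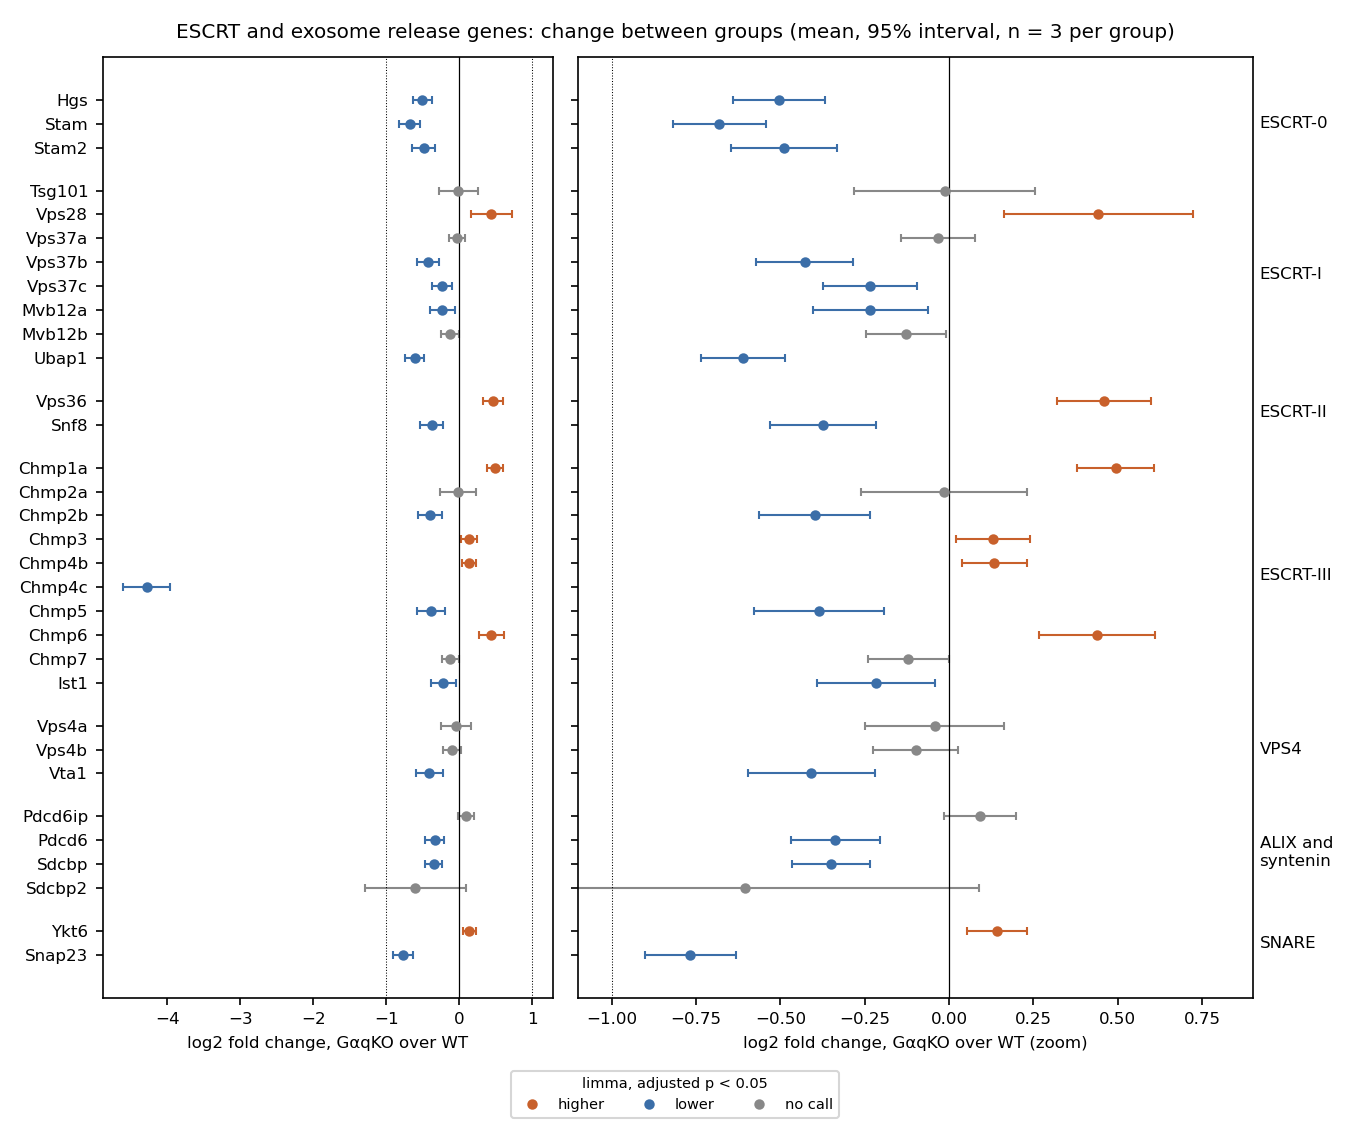
Log2 fold change of the 32 tested members, GαqKO over WT, by complex from top to bottom, with points for the limma estimate, bars for its 95% interval, colors for the call and dotted lines at a change of 1 in size. The left panel shows the whole range with Chmp4c at -4.28, which lies outside the right panel, a zoom from -1.1 to 0.9 in which the lower end of the Sdcbp2 interval is also cut off, and the 3 ESCRT-0 genes all lie left of 0.

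Promoters of the 3 ESCRT-0 genes, which fell together, are printed with those of Vps36 and Chmp1a, the members with a promoter entry that rose most. Each run is the 250 bases before the RefSeq gene start on the strand of the gene, from the mouse assembly GRCm38.p6. Capitals mark matches on either strand to CCAAT, the CCAAT box, or to GGGCGG, the GC box bound by SP1.
Hgs, chr11:120467385-120467634, plus strand: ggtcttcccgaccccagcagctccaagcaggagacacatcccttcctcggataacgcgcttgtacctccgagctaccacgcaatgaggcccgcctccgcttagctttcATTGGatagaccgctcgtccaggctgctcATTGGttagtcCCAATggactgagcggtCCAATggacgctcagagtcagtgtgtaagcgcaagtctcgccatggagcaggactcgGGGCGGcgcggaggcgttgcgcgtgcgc
Stam, chr2:14073850-14074099, plus strand: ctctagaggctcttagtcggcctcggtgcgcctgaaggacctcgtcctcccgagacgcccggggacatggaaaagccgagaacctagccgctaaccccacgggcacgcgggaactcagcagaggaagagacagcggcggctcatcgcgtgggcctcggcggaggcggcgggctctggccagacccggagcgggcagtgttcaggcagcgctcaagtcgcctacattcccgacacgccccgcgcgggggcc
Stam2, chr2:52742150-52742399, minus strand: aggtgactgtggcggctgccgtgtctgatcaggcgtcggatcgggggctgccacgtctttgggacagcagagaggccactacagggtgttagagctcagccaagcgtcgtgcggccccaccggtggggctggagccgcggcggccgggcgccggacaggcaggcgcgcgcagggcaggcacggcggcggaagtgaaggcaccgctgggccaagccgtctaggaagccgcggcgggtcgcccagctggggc
Vps36, chr8:22192583-22192832, plus strand: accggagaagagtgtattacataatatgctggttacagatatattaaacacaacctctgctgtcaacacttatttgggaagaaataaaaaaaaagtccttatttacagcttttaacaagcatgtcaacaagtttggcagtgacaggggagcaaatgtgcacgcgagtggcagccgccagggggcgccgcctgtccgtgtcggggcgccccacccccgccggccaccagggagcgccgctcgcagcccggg
Chmp1a, chr8:123212789-123213038, minus strand: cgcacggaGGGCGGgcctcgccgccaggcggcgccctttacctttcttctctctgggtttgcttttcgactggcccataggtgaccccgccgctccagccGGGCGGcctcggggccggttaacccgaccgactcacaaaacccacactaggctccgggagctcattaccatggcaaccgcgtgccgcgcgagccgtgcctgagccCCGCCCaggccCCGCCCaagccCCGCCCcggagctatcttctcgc

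Hgs held 4 CCAAT boxes and 1 GC box and Chmp1a 5 GC boxes, while the windows of Stam, Stam2 and Vps36 held neither motif. The GC content was 61.6% in Hgs, 69.6% in Stam, 72.8% in Stam2, 53.6% in Vps36 and 70.0% in Chmp1a, against a median of 52.4% over all 32851 promoters of the table. Promoters were listed for 25 of the 35 members, not for Vps28, Vps37a, Vps37b, Snf8, Chmp1b, Chmp4c, Chmp6, Chmp7, Sdcbp and Vamp7. A CCAAT box was found in 7 of these 25 genes (28.0%) and in 33.8% of all promoters, and a GC box in 13 (52.0%) and 32.7%. The 25 genes had 27 promoters, and a gene counted when any of its promoters held the motif. Shares over all promoters count each promoter singly, so the 2 shares are not wholly alike. Both motifs were searched on either strand and do not overlap in letters. The E-box CACGTG was found in 1 of the 25 genes (4.0%) and in 6.0% of all promoters, the ETS core CCGGAAG in 3 (12.0%) and 6.9%, and the NRF1 motif GCATGCG in 2 (8.0%) and 3.0%, and none of these 3 stood in a printed window. The 3 printed ESCRT-0 windows thus shared neither the CCAAT box nor the GC box. A link between any of these motifs and the changes between groups was not tested.

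ESCRT-0 recognises ubiquitinated cargo on the early endosome. Hgs (ENSMUSG00000025793.18; chromosome 11, 120358446 to 120375086 of GRCm39) encodes HRS, which binds the endosomal lipid PI3P and clathrin, and its transcript had 689, 725 and 726 normalized counts in the WT libraries and 512, 475 and 522 in the GαqKO libraries. Every GαqKO library was below every WT library, a log2 fold change of -0.50 ± 0.063 (SE, the standard error) with an adjusted p of 8.62e-06 by limma. Stam (ENSMUSG00000026718.18; chromosome 2, 14078890 to 14154466), which encodes a partner of HRS that also binds ubiquitin, had 821, 829 and 926 normalized counts in WT and 545, 542 and 517 in GαqKO. It fell by 37.7%, the largest change of the complex, with a log2 fold change of -0.68 ± 0.0642 (SE) with an adjusted p of 5.15e-07 by limma. Stam2 (ENSMUSG00000055371.18; chromosome 2, 52581669 to 52632598), its paralog, had 752, 739 and 707 normalized counts against 577, 518 and 475, a log2 fold change of -0.49 (limma, adjusted p = 4.77e-05). The groups did not overlap for any of the 3 genes, which also held for 69.6% of all genes tested. All 3 were lower in each of the 15 alternative settings. Of the exon bases of Stam2, 69.3% lie within the spans of 2 other annotated genes.

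ESCRT-I is a rod of 4 subunits, TSG101, VPS28, a VPS37 protein and MVB12 or UBAP1, and its genes moved in both directions. Tsg101 encodes the subunit that binds HRS, viral late domains and ALIX, and its transcript had 170.2, 179.7 and 159.8 normalized counts in WT and 151, 198 and 159 in GαqKO. The groups overlapped, with GαqKO replicate 2 the highest of all 6 libraries, and the log2 fold change was -0.01 with a 95% interval from -0.28 to 0.26 (limma, adjusted p = 0.934). The processed pseudogene Tsg101-ps, which shares 10.4% of the 31-base stretches of the Tsg101 transcripts, had 820.4 to 931 normalized counts in WT and 866 to 916 in GαqKO, so reads of Tsg101 may be counted at this copy and its level is uncertain. Vps28, which encodes the subunit that recruits ESCRT-II, had 161, 124 and 122 normalized counts in WT and 174, 187 and 189 in GαqKO. It was the single ESCRT-I gene that rose, with a log2 fold change of 0.44 ± 0.129 (SE) with an adjusted p of 0.00829 by limma. This call was lost in DESeq2 on the reads of 5 libraries (adjusted p = 0.0617).

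Ubap1 (ENSMUSG00000028437.15; chromosome 4, 41348993 to 41390525), which encodes an ESCRT-I subunit dedicated to endosomal sorting, fell most in the complex. It had 1108, 1104 and 1078 normalized counts in WT and 762.5, 672 and 721 in GαqKO, a log2 fold change of -0.61 ± 0.0582 (SE) with an adjusted p of 5.73e-07 by limma. The lowest WT library was well above the highest GαqKO library. Vps37b, which encodes one of several interchangeable VPS37 subunits, had a log2 fold change of -0.43 and Vps37c one of -0.23, and both fell (61.4% of the Vps37b exon bases lie within genes on the opposite strand), whereas Vps37a was at -0.03 with a 95% interval from -0.14 to 0.08 (limma, adjusted p = 0.586). Mvb12a, which encodes an alternative to UBAP1 in the rod, was called lower at -0.23 (limma, adjusted p = 0.0183), a call lost in 6 of the 15 alternative settings, and Mvb12b was not called at -0.13 (limma, adjusted p = 0.0569). In all, 4 of the 8 ESCRT-I genes fell, 1 rose and 3 were not called, with a median log2 fold change of -0.18. For comparison, 34.1% of all genes tested fell and 31.8% rose.

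ESCRT-II bridges ESCRT-I and ESCRT-III and is built of VPS36, SNF8 (also called VPS22) and VPS25. Vps36 (ENSMUSG00000031479.10; chromosome 8, 22682791 to 22710966), which encodes the subunit that binds ubiquitin and endosomal lipids, had 489, 482 and 530.3 normalized counts in WT and 671, 675 and 717 in GαqKO. It rose by 37.5% with no overlap, a log2 fold change of 0.46 ± 0.0646 (SE) with an adjusted p of 2.64e-05 by limma. Snf8 moved the other way, with 468, 504 and 508 normalized counts in WT and 394, 357 and 389.7 in GαqKO, a log2 fold change of -0.37 (limma, adjusted p = 0.000471). Subunits of the same complex thus changed in opposite directions. Vps25 was listed at 0 in 5 libraries and at 1.9 in GαqKO replicate 1, and was not tested. Its exons lie wholly within the span of Ramp2 on the same strand, a gene that had 2.1 to 10.2 normalized counts in WT and 44.3 to 60.1 in GαqKO. Ramp2 transcripts share 28.2% of the 31-base stretches of the Vps25 transcripts, so reads of Vps25 may not be counted at Vps25 and its level is uncertain.

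ESCRT-III subunits are small proteins, most of them called CHMP, that polymerise at the bud neck. CHMP6 receives the signal from ESCRT-II and starts the filament, CHMP4 proteins form its main strand, and CHMP2 and CHMP3 cap it. Chmp4c (ENSMUSG00000027536.7; chromosome 3, 10431933 to 10493919), which encodes the CHMP4 form known for delaying the last cut of cell division, changed most of all members. Chmp4c had 343.5, 379 and 351 normalized counts in WT and 17.8, 17.3 and 17.1 in GαqKO. The GαqKO libraries were all far below the WT libraries, with a log2 fold change of -4.28 ± 0.15 (SE) with an adjusted p of 1.92e-11 by limma, and the fold change lay between -4.33 and -4.01 in the 15 alternative settings.

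Of the exon bases of Chmp4c, 96.8% lie within the spans of 2 genes on the opposite strand. The one with a named symbol, Snx16, had 66.8, 72.9 and 88.6 normalized counts in WT and 99.5, 75.2 and 101.7 in GαqKO. Snx16 was not called, at a log2 fold change of 0.27 with a 95% interval from -0.11 to 0.65 (limma, adjusted p = 0.195). The epithelial markers Cdh1 and Krt14 were also lower in the libraries labelled GαqKO, from 238 ± 3.1 to 8.0 ± 2.7 and from 258 ± 4.0 to 1.1 ± 1.2 normalized counts (SD, n = 3 each), and whether they and Chmp4c moved for a common reason was not tested.

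Its paralog Chmp4b, which encodes the main CHMP4 form, was among the most abundant members, with 4021, 3749 and 3839 normalized counts in WT and 4126, 4190.2 and 4424 in GαqKO. Chmp4b was called higher by a small amount, a log2 fold change of 0.13 (limma, adjusted p = 0.0167), a call lost in 5 of the 15 alternative settings. Chmp4c made up 1.78% ± 0.148 of the summed level per kilobase of the pair in WT and 0.0801% ± 0.00445 in GαqKO (SD, n = 3 each). The shares did not overlap, and the exact permutation test, two-sided, gave p = 0.1, the smallest that 3 against 3 libraries allow.

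Chmp1a (ENSMUSG00000000743.10; chromosome 8, 123931003 to 123939528), which encodes a late-acting subunit that recruits VPS4, rose most of all members. Chmp1a had 1077, 1002 and 974 normalized counts in WT and 1423, 1466 and 1407 in GαqKO, an increase of 40.7% and a log2 fold change of 0.49 ± 0.0525 (SE) with an adjusted p of 1.75e-06 by limma. Chmp6 rose by 35.1% (log2 fold change 0.44, adjusted p = 0.000265 from limma), while Chmp3 was called higher at 0.13 (limma, adjusted p = 0.0356) and lost this call in 8 of the 15 alternative settings. Chmp2b, which encodes one of the capping subunits, fell with a log2 fold change of -0.40 (limma, adjusted p = 0.000413), and Chmp5, which encodes a subunit that binds the VPS4 cofactor LIP5, fell with one of -0.39 (limma, adjusted p = 0.0017). Ist1, which encodes a regulator of VPS4 recruitment, was called lower at -0.22 although its groups overlapped (limma, adjusted p = 0.0296), and 8 of the 15 alternative settings lost this call.

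Chmp2a, which had 209.9, 168 and 177 normalized counts in WT and 189, 184 and 174 in GαqKO, and Chmp7 were not called. Chmp2a had a log2 fold change of -0.02 with a 95% interval from -0.26 to 0.23, and Chmp7, which encodes the subunit that brings ESCRT-III to the nuclear envelope, had -0.12 (limma, adjusted p = 0.0717). Chmp1b was listed at 0 in all 6 libraries and was not tested. Its exons lie wholly within the span of Gnal on the same strand, which had 6.1 to 12.7 normalized counts in the 6 libraries. Why Chmp1b was at 0 was not tested, and its level is uncertain. Over the complex, 4 of the 10 tested genes rose (40.0%), 4 fell (40.0%) and 2 were not called, with a median log2 fold change of -0.07. Over all genes 31.8% rose and 34.1% fell.

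**Figure D2:**
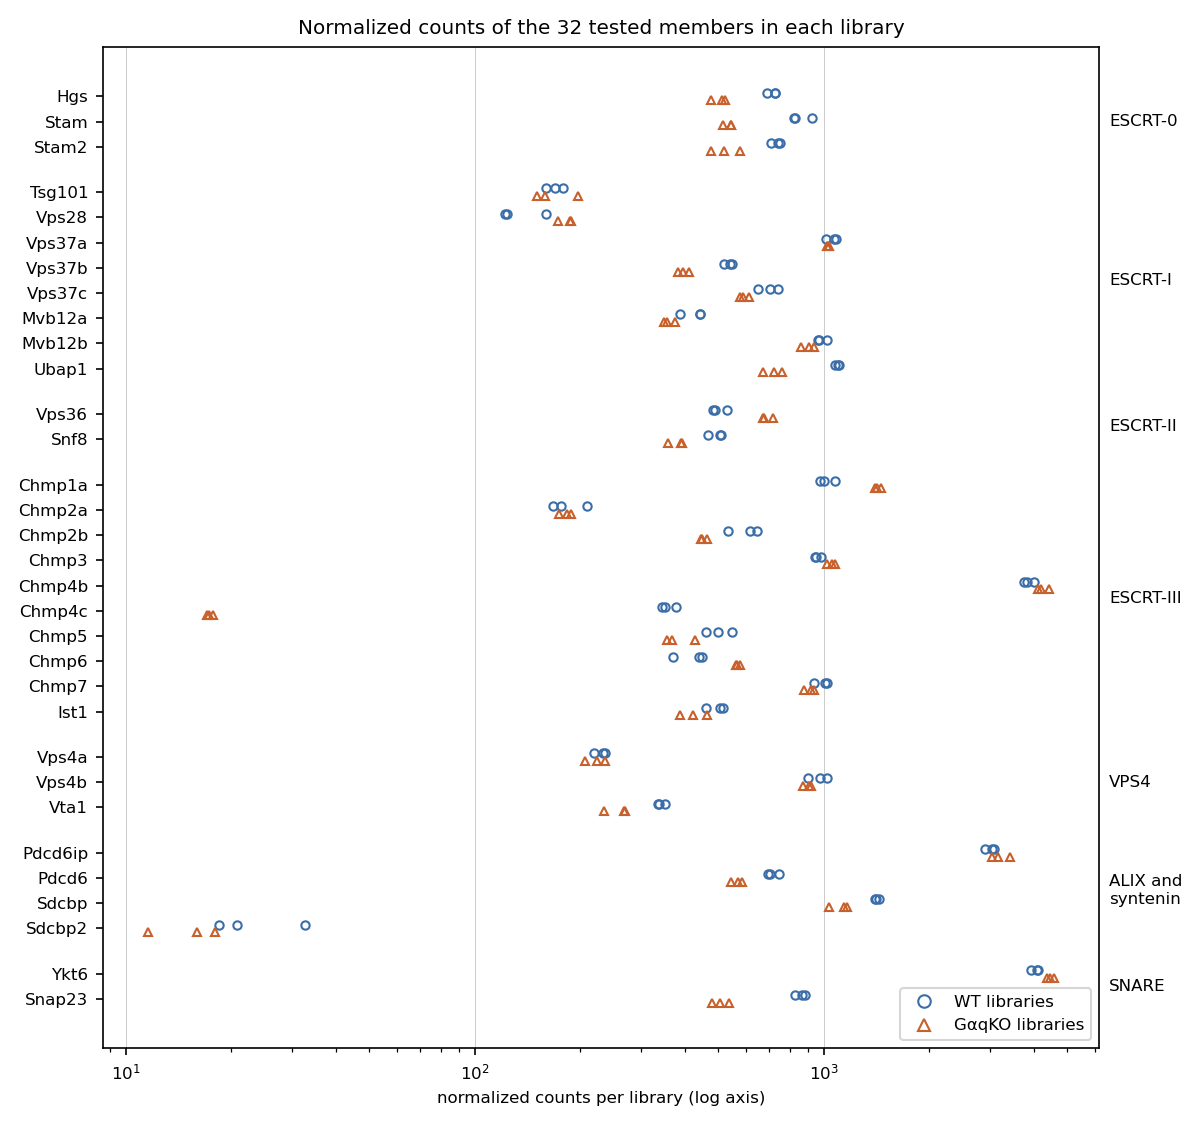
Normalized counts of each tested member in each library on a log axis, with circles for the 3 WT libraries and triangles for the 3 GαqKO libraries and complexes from top to bottom. Chmp4c is at 17.1 to 17.8 in GαqKO against 343.5 to 379 in WT, Sdcbp2 is low in both groups at 11.6 to 32.6, and for the other members the groups lie close together.

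VPS4A and VPS4B form the ATPase ring that disassembles ESCRT-III, and VTA1, also called LIP5, stimulates it. Vps4a had 219, 233 and 236 normalized counts in WT and 224, 237 and 207 in GαqKO. The groups overlapped, with a log2 fold change of -0.04 and a 95% interval from -0.25 to 0.16 (limma, adjusted p = 0.709). Vps4b had 1020.2, 974 and 901 normalized counts in WT and 909.9, 872 and 918 in GαqKO, also overlapping, with a log2 fold change of -0.10 and a 95% interval from -0.23 to 0.03 (limma, adjusted p = 0.152). Without WT replicate 3, Vps4b was called lower at -0.15 (limma, adjusted p = 0.033). Vta1 had 352, 338 and 336 normalized counts in WT and 269, 271 and 235 in GαqKO and fell with no overlap, a log2 fold change of -0.41 ± 0.0869 (SE) with an adjusted p of 0.000939 by limma.

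ALIX, encoded by Pdcd6ip, links cargo and TSG101 to CHMP4 proteins, ALG-2, encoded by Pdcd6, is its calcium-dependent partner, and syntenin, encoded by Sdcbp, connects syndecans to ALIX. Pdcd6ip (ENSMUSG00000032504.16; chromosome 9, 113480803 to 113537380) had 3079, 2902 and 3034 normalized counts in WT and 3422, 3036 and 3154 in GαqKO. The groups overlapped, and the log2 fold change of 0.09 had a 95% interval from -0.02 to 0.20 (limma, adjusted p = 0.124). Sdcbp (ENSMUSG00000028249.16; chromosome 4, 6365547 to 6408848) had 1402, 1444.5 and 1417 normalized counts in WT and 1038, 1145 and 1166 in GαqKO. Sdcbp fell by 21.5% with no overlap, a log2 fold change of -0.35 ± 0.0541 (SE) with an adjusted p of 6.36e-05 by limma.

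Pdcd6 also fell, with a log2 fold change of -0.34 (limma, adjusted p = 0.000252). Sdcbp2, the gene of a second syntenin, was the lowest of the tested members in WT, with 20.9, 18.5 and 32.6 normalized counts in WT and 16.0, 11.6 and 18.1 in GαqKO. It was not called, with a log2 fold change of -0.60 and a 95% interval from -1.30 to 0.09 (limma, adjusted p = 0.114). Sdcbp and Pdcd6 thus fell, while the ALIX gene was not called.

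The SNARE proteins listed take part in the fusion of multivesicular bodies with the plasma membrane. Snap23 (ENSMUSG00000027287.15; chromosome 2, 120397782 to 120433531), which encodes a SNARE of the plasma membrane, had 831, 866.5 and 886.5 normalized counts in WT and 478, 536.5 and 504.5 in GαqKO. It fell by 41.2% with no overlap, a log2 fold change of -0.77 ± 0.063 (SE) with an adjusted p of 1.24e-07 by limma, the largest change after that of Chmp4c. Lrrc57, whose span holds 52.0% of the Snap23 exon bases on the opposite strand, had 246, 239.9 and 212 normalized counts in WT and 163, 152 and 183 in GαqKO and was also lower, at -0.49 (limma, adjusted p = 0.00164), and how the reads of the 2 genes were divided was not tested.

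Ykt6, which encodes a lipid-anchored SNARE, moved the other way. It had 4100.5, 4122 and 3926 normalized counts in WT and 4362, 4461 and 4573 in GαqKO, a log2 fold change of 0.14 ± 0.041 (SE) with an adjusted p of 0.00796 by limma. The groups did not overlap, and the call was lost when limma was run without a trend in its prior spread (adjusted p = 0.0533). Vamp7 was matched to no row and was not analysed here.

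Levels were compared between genes as normalized counts per kilobase of exon. Chmp4b was highest in WT, at 1792 ± 64.3 per kilobase, and Ykt6 followed at 729 ± 19.4 (SD, n = 3 each). Chmp1a at 299 ± 15.6, Chmp2b at 298 ± 29.0 and Pdcd6ip at 281 ± 8.65 per kilobase came next, and their ranges of mean ± SD overlapped from neighbour to neighbour. In GαqKO the order began with Chmp4b at 1967 ± 72.6, Ykt6 at 804 ± 19.0 and Chmp1a at 421 ± 9.04 per kilobase, while Chmp2b, at 225 ± 4.52, was below Pdcd6ip at 300.0 ± 18.5. Snap23 went from rank 17 to rank 22 of 32 and Vps36 from rank 19 to rank 8. The tested ESCRT-0, ESCRT-I and ESCRT-II genes ran in WT from Ubap1 at 170.4 ± 2.52 down to Tsg101 at 27.7 ± 1.62 per kilobase. The place of Tsg101 is uncertain, since its reads may be counted at Tsg101-ps, which had 758 per kilobase in WT and 757 in GαqKO. The aligner did not split reads over introns, and the effect of this on the order of genes was not tested. Sdcbp2, at 3.18 ± 1.00, was lowest of all in WT. In GαqKO the lowest were Chmp4c at 1.58 ± 0.0334 and Sdcbp2 at 2.02 ± 0.444, whose ranges of mean ± SD overlapped. With the length of the longest transcript in place of all exons, Chmp4b and Ykt6 stayed at ranks 1 and 2 in WT and Pdcd6ip took rank 3.

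**Figure D3:**
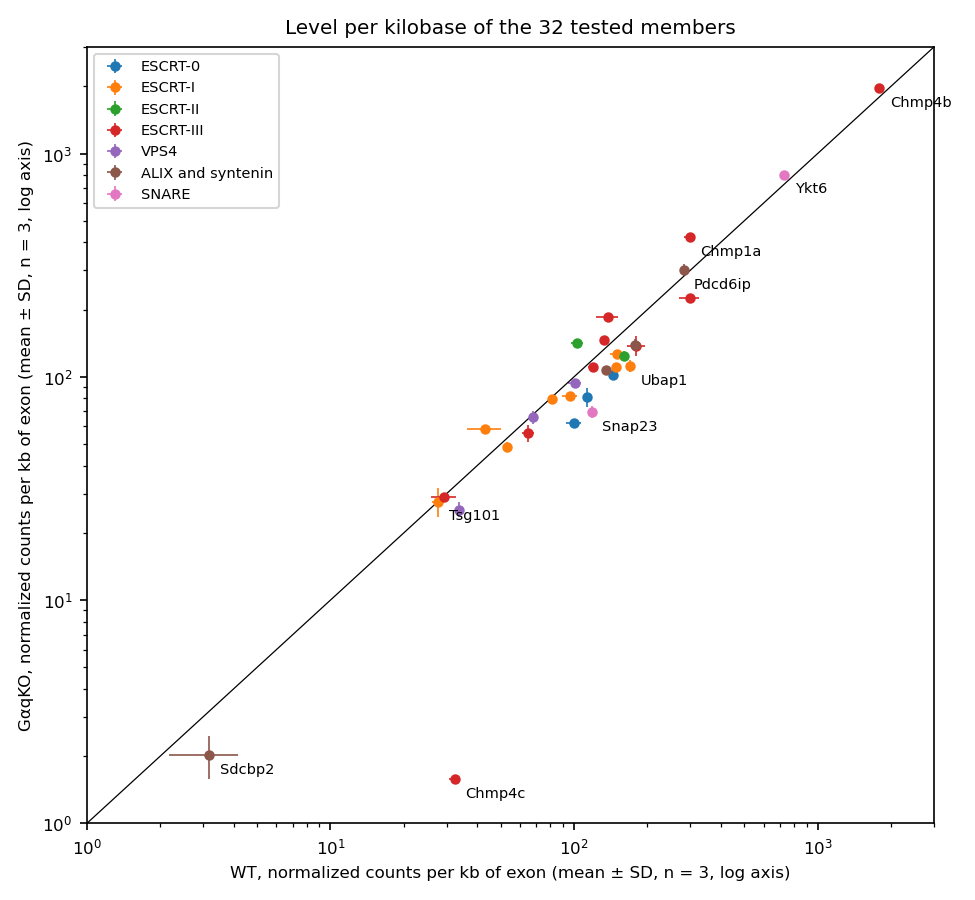
Mean normalized counts per kilobase of exon in WT (x, log axis) and GαqKO (y, log axis) of the 32 tested members, with bars for the SD over 3 libraries, colors for the complexes and a diagonal of equal levels. Chmp4b and Ykt6 are at the top in both groups, most members lie near the diagonal, and Chmp4c, at 32.3 per kilobase in WT and 1.58 in GαqKO, lies far below it.

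Several members are paralogs that take the same place in a complex, and their shares of the summed level per kilobase were compared in each library by an exact permutation test, two-sided, whose smallest p is 0.1 with 3 against 3 libraries and so cannot pass 0.05. Stam2 made up 53.3% ± 2.45 of Stam and Stam2 in WT and 56.6% ± 1.78 in GαqKO (SD, n = 3 each, exact p = 0.1). Vps37b went from 39.2% ± 0.496 to 34.9% ± 0.331 of the 3 VPS37 genes, and Vps37c was at 39.3% ± 1.13 and 40.0% ± 0.186 (SD, n = 3 each, exact p = 0.1 and 0.4). Chmp2b held most of the CHMP2 level in both groups, at 91.0% ± 1.16 and 88.6% ± 0.265 (SD, n = 3 each, exact p = 0.1). Before division by length, Chmp2b and Chmp2a had mean normalized counts of 598.5 and 185.0 in WT and of 452.6 and 182.3 in GαqKO. Their exon lengths were 2007 and 6308 bases, so the size of this share depends on the lengths used. Of the exon bases of Chmp2a, 57.3% lie within the span of Trim28 on the opposite strand, and the effect on this share was not tested. Shares of Vps4b among the VPS4 genes were 59.6% ± 2.39 and 58.7% ± 2.25, and those of Mvb12b among the MVB12 genes 35.7% ± 2.52 and 37.4% ± 1.45 (SD, n = 3 each, exact p = 0.7 and 0.3). With the length of the longest transcript, the mean share of Mvb12b was 51.2% in WT and 53.1% in GαqKO. That of Stam2 was then 45.5% and 48.8%. Which paralog of these pairs had the larger share depended on the length used. Sdcbp2 was 1.76% ± 0.552 and 1.43% ± 0.321 of the syntenin level (SD, n = 3 each, exact p = 0.6). Groups did not overlap for the shares of Stam2, where the closest libraries were at 55.0% and 55.1%, Vps37b, Chmp2b and Chmp4c, and the mean shares differed at most by -4.34 percentage points, for Vps37b. The 8 raw p-values were not adjusted further, since none can pass 0.05.

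**Figure D4:**
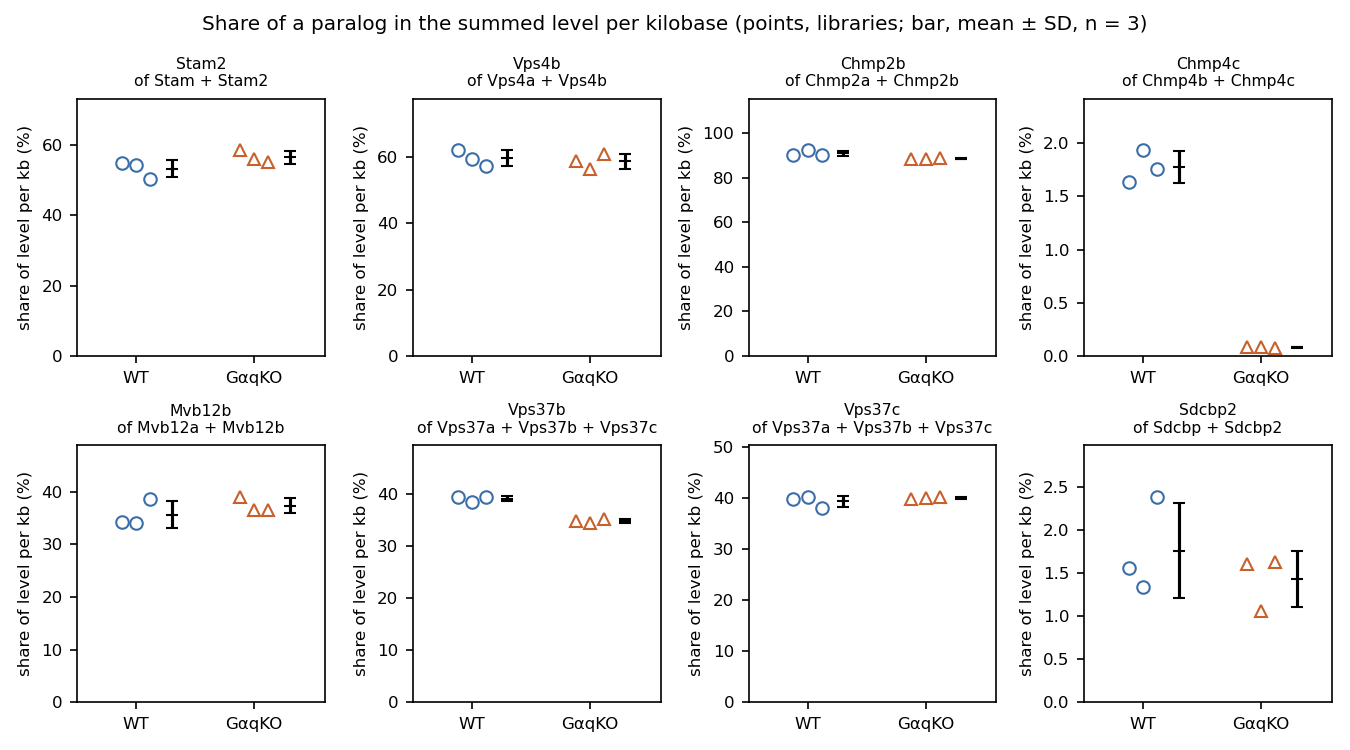
Share (%) of a paralog in the summed level per kilobase of its pair or trio in each library, with circles for WT, triangles for GαqKO and a bar for the mean ± SD (n = 3), on axes that start at 0. Chmp4c goes from 1.78% to 0.0801% of the CHMP4 level, Vps37b from 39.2% to 34.9% and Chmp2b from 91.0% to 88.6% with no overlap, and the shares of Vps4b, Mvb12b, Vps37c and Sdcbp2 overlap between groups.

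Partners of the machinery were read from 3 lists of 22 genes each, of which 61 genes were tested. In them 16 (26.2%) were higher and 27 (44.3%) lower, against 31.8% and 34.1% of all genes. With a log2 fold change over 1 in size as well, 4 were higher and 4 lower, against 10.2% and 10.5% of all genes. Among the ESCRT partners and regulators, 5 of 22 rose and 10 fell. Arrdc1, which encodes an arrestin-like adaptor that recruits TSG101 to the plasma membrane for vesicle budding, had 174, 188 and 219 normalized counts in WT and 46.0, 50.9 and 43.3 in GαqKO, a log2 fold change of -2.02 ± 0.151 (SE) with an adjusted p of 4.57e-08 by limma. Tom1l1, which encodes a sorting adaptor that binds ubiquitin and HRS, had 328, 355 and 314 against 144, 120.2 and 138, a log2 fold change of -1.31 (limma, adjusted p = 1.05e-07). Neither gene had overlapping groups, and these were the 2 genes of the list past a change of 1.

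Of the syndecans and exosome release factors, 7 of the 19 tested genes rose (36.8%) and 6 fell (31.6%), near the 31.8% and 34.1% of all genes. Steap3, which encodes an endosomal ferrireductase that has been linked to exosome secretion, had 111, 127 and 85.5 normalized counts in WT and 1395, 1288 and 1309 in GαqKO, a log2 fold change of 3.63 ± 0.117 (SE) with an adjusted p of 8.31e-12 by limma. Smpd3, which encodes neutral sphingomyelinase 2, the enzyme of the ceramide route to intraluminal vesicles, had 1569, 1481 and 1487 in WT and 269.5, 221 and 268 in GαqKO, a log2 fold change of -2.58 ± 0.0781 (SE) with an adjusted p of 4.55e-12 by limma. Each GαqKO library of Steap3 was above, and each of Smpd3 below, every WT library. Sdc3, a syndecan gene, had 44.9, 37.9 and 47.8 against 129.6, 134 and 140.0 normalized counts and rose with a log2 fold change of 1.61 (limma, adjusted p = 9.52e-07). Hpse, which encodes heparanase, an enzyme that trims syndecan heparan sulfate, had 36.5, 39.8 and 24.4 against 93.9, 100.6 and 91.6 and rose by 1.51 on the log2 scale (limma, adjusted p = 2.45e-05), with 51.7% of its exon bases within a gene on the opposite strand. Rab27a, Sytl4 and Exph5 were under the filter on low values, at no more than 14.2 normalized counts in any library.

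Of the other endosomal and plasma membrane SNARE genes, 4 of the 20 tested rose (20.0%) and 11 fell (55.0%), with a median log2 fold change of -0.19. Over all genes 31.8% rose and 34.1% fell. Stx16, which encodes a syntaxin of the trans-Golgi network, had 1874, 2107 and 2175 normalized counts in WT and 5579, 5374 and 5656 in GαqKO, a log2 fold change of 1.43 ± 0.054 (SE) with an adjusted p of 3.9e-11 by limma. Stx3, which encodes a plasma membrane syntaxin, had 570.1, 663.5 and 596.5 in WT and 297, 269 and 292 in GαqKO, a log2 fold change of -1.09 ± 0.0791 (SE) with an adjusted p of 3.51e-08 by limma. The groups of both genes were far apart, in opposite directions. Vamp3 was listed at 0 in all 6 libraries and Snap25 had at most 8.1 normalized counts, and neither was tested. Why Vamp3 was at 0 was not examined, and its level is uncertain.

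**Figure D5:**
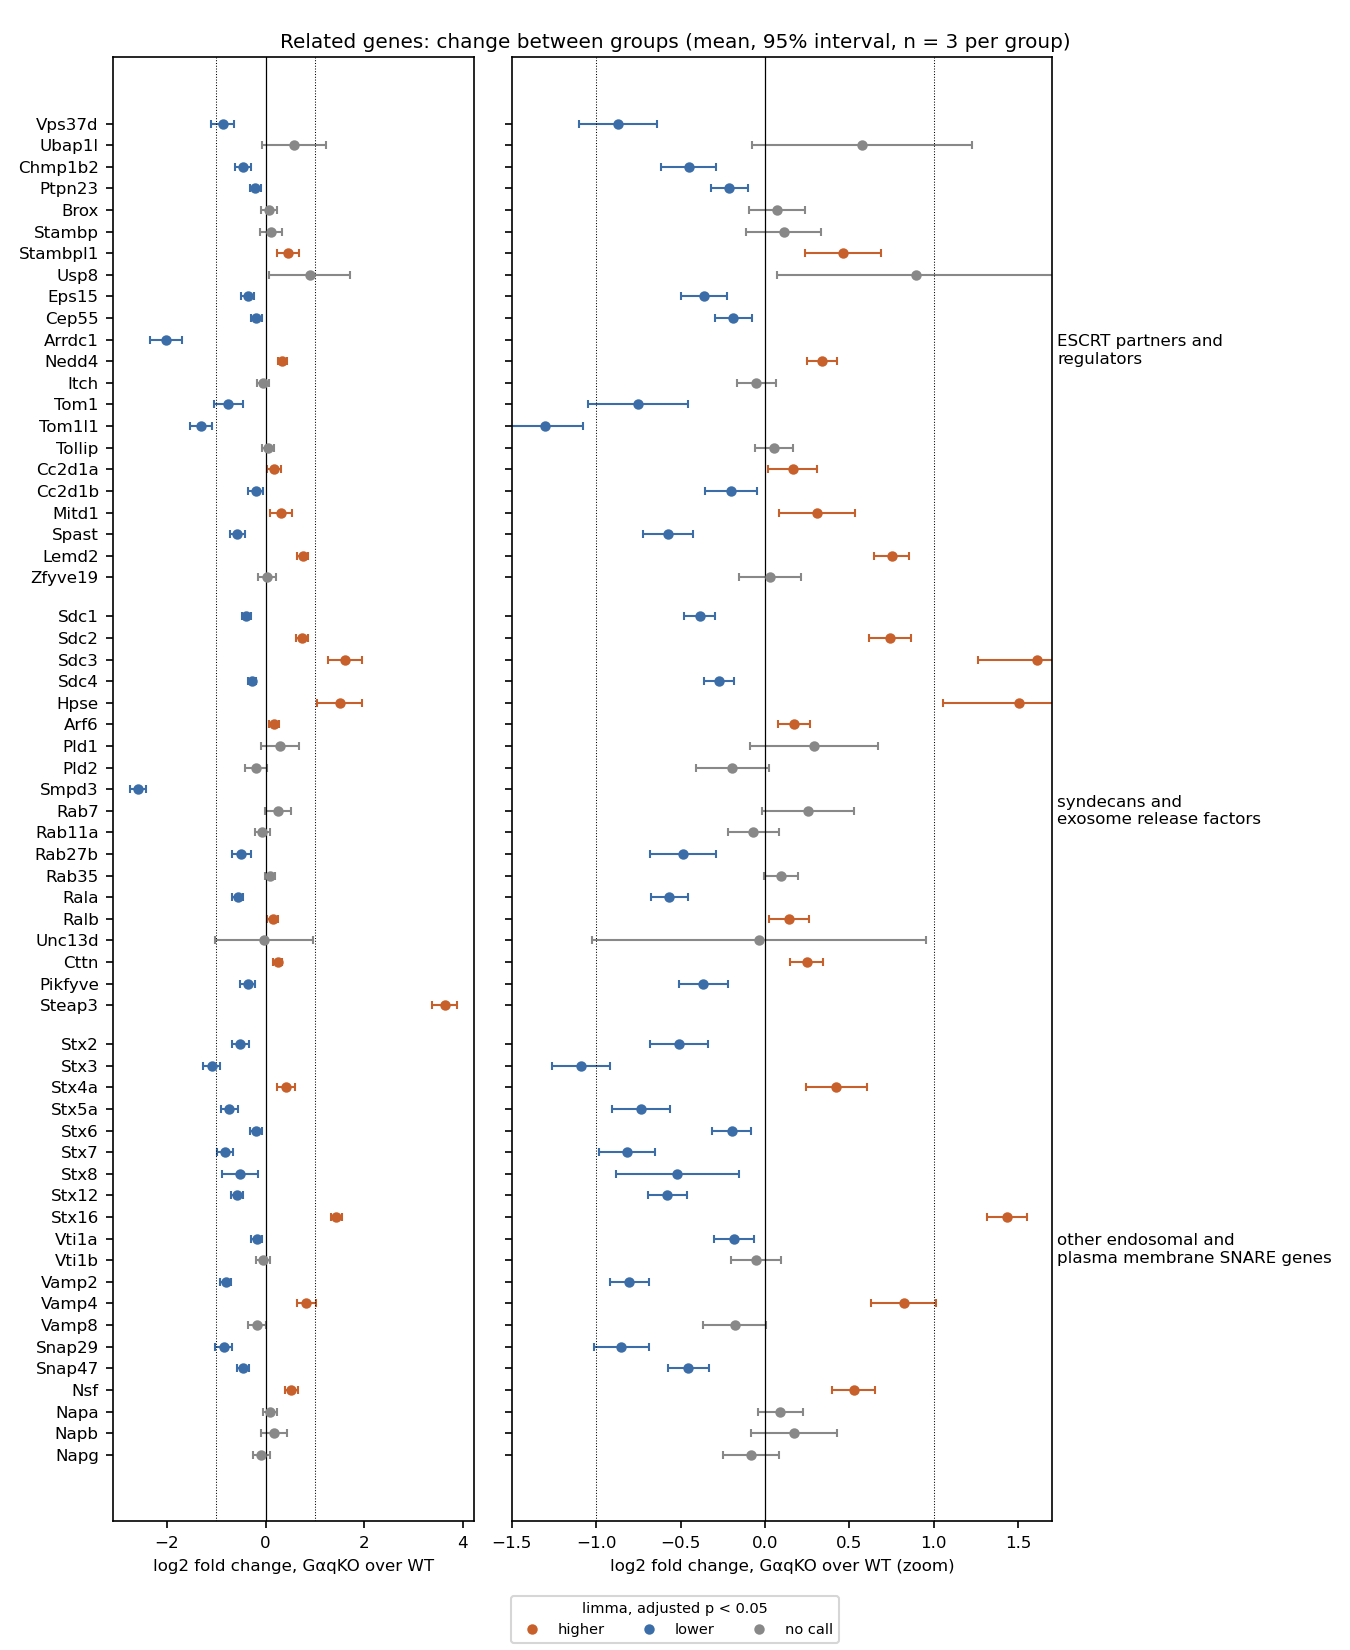
Log2 fold change of the 61 tested related genes, GαqKO over WT, in the 3 lists from top to bottom, with points for the limma estimate, bars for its 95% interval, colors for the call and dotted lines at a change of 1 in size. Steap3 at 3.63 and Smpd3 at -2.58 lie farthest out in the left panel, and the right panel, a zoom from -1.5 to 1.7, cuts off these and the other values beyond its range.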

How the data were processed

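The libraries were made from poly-A selected RNA with a stranded kit and read from both ends over 150 bases. Alignment by the authors was to GRCm39 with Rbowtie2, which does not split reads over introns, and counting was by featureCounts with GENCODE release 32, followed by DESeq2 in R. The deposited values are a signal, which is the count of a gene divided by the size factor of its library. Versions, the strand setting and any filter are not given in the sources used here. The RNA extraction kit is the RNeasy Mini Kit in the labels and the miRNeasy Mini Kit in the text of the study's methods, whose list of reagents also has the RNeasy Mini Kit.

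GENCODE release 39 of GRCm39 gave symbols and coordinates and matched 56310 of 56953 identifiers (98.9%). Promoters came from a RefSeq table of GRCm38.p6, and no coordinates were converted. Shared 31-base stretches were counted between transcripts of members and of other genes, and copies sharing at least 10% were kept.

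The filter asked for 10 or more normalized counts in 3 or more libraries. The 14096 genes that passed were tested by limma on log2(normalized count + 1), its prior spread following a trend with mean level, and p-values were adjusted by Benjamini-Hochberg over all of them. Every nonzero value of each library was a whole multiple of 1 step, to within 0.1. The count tests edgeR and DESeq2 were run on the reads so recovered in 5 libraries. GαqKO replicate 3 was left out of them, although its values also passed this check. Level per kilobase used the union of exons. Alternatives changed the scaling, filter, pseudocount (0.5 and 5), prior spread, a replicate block, the test, the length and each library left out in turn. On simulated data limma recovered 195 of 200 changed genes with 9 false calls among 13693 tested. The simulated log2 changes were 0.5, 1 or 2 in size, and 61 of the 66 genes changed by 0.5 were recovered. Smaller changes, which most members had, were not simulated, and far fewer genes were changed than were called in the data. Counting precision is set by depth, and intervals cover the spread between libraries.

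The members and lists were chosen with earlier results of these data known. Library values are given for members past a change of 1 at the threshold, the 2 largest changes in each complex, Tsg101, Pdcd6ip, Sdcbp, Hgs, Vps4a, Vps4b and members under the filter, and for related genes past a change of 1 and the 2 largest in each list. Stam2, Chmp2a, Chmp4b and overlapping genes were added after their values were seen. Software was DESeq2 1.42.0, edgeR 4.0.16 and limma 3.58.1 under R 4.3.3, and pandas 2.3.3, scipy 1.17.1, numpy 2.4.6 and matplotlib 3.10.9 under Python 3.11.15.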

Additional observations from a re-analysis of the deposited data

How the results depend on the processing

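Of the 23 members called, 17 kept their direction and call in all 15 alternative settings. The exceptions were Vps28, Mvb12a, Chmp3, Chmp4b, Ist1 and Ykt6. The number of members called higher was 4 when limma's prior spread had no trend and 4 in DESeq2, against 7, and ran from 5 to 7 with 1 library left out, while the number called lower ran from 14 to 17 against 16. Chmp7 and Vps4b were called lower only without WT replicate 3. Among the related genes, 13 to 16 were higher and 25 to 27 lower with 1 library left out, against 16 and 27. Calls over all genes were 4352 higher and 4523 lower in edgeR, and 3810 and 4013 in DESeq2.

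The log2 fold changes of Tsg101, Chmp2a and Vps4a, none of them called, changed sign. With 1 library left out that of Tsg101 ran from -0.129 to 0.0633, that of Chmp2a from -0.0814 to 0.078 and that of Vps4a from -0.088 to 0.00774. They were 0.0397, 0.026 and 0.0182 in edgeR and 0.0455, 0.0249 and 0.0194 in DESeq2. The change in the share of Vps4b, GαqKO minus WT in percentage points, ran from -2.10 to 0.288 with 1 library left out, against -0.934. With the longest transcript the change in the share of Vps37c was -0.309 and that of Chmp4c -2.43, against 0.689 and -1.69. The cause was not tested.

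Libraries with the same replicate number did not deviate together (correlations of -0.0453, -0.148 and -0.0638). With the replicate number as a block, 6 members were higher and 15 lower, and 14 and 27 of the related genes. Both count tests rest on 5 libraries, and Chmp1b and Vps25, at or near 0 inside the spans of other genes, were not tested. Depth limits Sdcbp2, with at most 32.6 normalized counts.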
